A study of Mus musculus with 4 samples.

Results

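Hepatocytes take bile acids and other organic anions from sinusoidal blood, excrete them across the canalicular membrane into bile, and can return them to blood across the basolateral membrane. The 9 genes of this traffic followed here were chosen by gene symbol, and all 9 were among the 13903 genes of the deposited table. The 4 uptake genes were Slc10a1 (NTCP), the sodium-dependent carrier of conjugated bile acids, and Slco1a1, Slco1a4 and Slco1b2, sodium-independent organic anion transporters. The 3 canalicular genes were Abcb11, the bile salt export pump (BSEP), Abcb4 (MDR2), which moves phosphatidylcholine into bile, and Abcc2 (MRP2), which exports glutathione and glucuronide conjugates. The 2 basolateral export genes were Abcc3 (MRP3) and Abcc4 (MRP4), which send conjugates and bile acids back to the sinusoid. As background, cholestatic and injured rodent liver is known for lower uptake carriers and higher basolateral pumps, and several of these genes are under the control of nuclear receptors such as FXR, PXR and CAR and of the antioxidant factor NRF2.

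The RNA was from liver of C57BL/6J mice with floxed Ogt (OGT-Floxed in the labels), all given the CDE diet (deficient in choline and supplemented with ethionine), which injures hepatocytes and drives a ductular response. OGT is the enzyme that adds O-GlcNAc to proteins. Mice of the control groups had received AAV8-TBG-eGFP and mice of the OGT-KO groups AAV8-TBG-CRE, in which the hepatocyte-directed TBG promoter drives Cre, and livers of each virus group were collected without recovery from the diet or at 7 days of recovery. The 4 conditions had 1 library apiece, an equal pool of RNA of 3 animals, so there is no replicate error and no test between conditions, and intervals (95%) cover counting error only. The libraries held 19972699 to 22866431 reads on the listed genes, and 3 reads, taken as the floor, stood for 0.131 to 0.15 CPM (reads per 1000000 reads of the library).

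The Ogt transcript itself did not separate the labels. Ogt was at 64.7 CPM in the control library and 55.3 in the OGT-KO-labelled library with no recovery, and at 55.7 and 77.7 after 7 days. The table gives a single value for the whole gene, which need not show the loss of a floxed segment, so the groups are called by their labels throughout. The tissue was liver by its markers: 6 hepatocyte genes summed to 71569 CPM in the control library and 53192 in the OGT-KO-labelled library with no recovery, and to 83344 and 64872 CPM after 7 days. The sums were thus lower under the OGT-KO label. Of the 6, Apoa1 was called lower at both time points (-1.60 and -1.97 on the log2 scale) and Fgb after 7 days only (-0.81 and -1.56). Ttr (-0.87 and -0.44), Cps1 (-0.43 and -0.05), Alb (-0.21 and -0.08) and Asgr1 (-0.02 and 0.12) were not called. Under median-ratio scaling, used further below, 3 of the 6 were lower at both time points, beside 10.4% of all compared genes. The OGT-KO-labelled libraries also held more RNA of cholangiocyte, stellate cell and macrophage markers. The 7 cholangiocyte markers summed to 54.3 and 71.0 CPM in the control libraries and to 1173 and 1493 in the OGT-KO-labelled libraries, in the order no recovery and 7 days. Summed stellate cell markers (6 genes) were at 87.1 and 63.2 against 1248 and 1599 CPM, and summed macrophage markers (5 genes) at 157 and 60.3 against 498 and 370 CPM. Summed endothelial markers (6 genes) differed less, at 176 and 125 against 317 and 231 CPM. Of these 6, 1 was at least 2-fold higher at both time points as deposited and 0 under median-ratio scaling. Counted without a filter on low values, 7 of 7 cholangiocyte, 6 of 6 stellate and 4 of 5 macrophage markers were at least 2-fold higher in the OGT-KO-labelled library at both time points. Of all 13903 genes, also without a filter, 4595 were at least 2-fold higher with no recovery and 4492 after 7 days, each time point counted singly. Among compared genes 6 of 6 cholangiocyte, 6 of 6 stellate and 4 of 4 macrophage markers were higher at both, beside 19.2% of all. Of these, 4 cholangiocyte and 2 stellate markers were under the filter in both control libraries, so these counts are not independent of it. The part of these other cells in the transporter results was not tested, and in bulk RNA fewer hepatocytes and less RNA per hepatocyte cannot be told apart. No defining marker of the cholangiocyte, stellate or macrophage lists was at 0 reads in any library, whereas summed lymphocyte (3 genes) and neutrophil (3 genes) markers were at no more than 23.4 CPM.

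Of the uptake genes, Slc10a1, Slco1a1 and Slco1b2 were lower in the OGT-KO-labelled library by more than 2-fold at both time points, while Slco1a4 differed by 1.13-fold at most. Of the export genes, Abcb4, Abcc2 and Abcc3 were each 1.61- to 1.89-fold higher as deposited, Abcb11 was lower, and Abcc4 was 24.1-fold higher with no recovery and 20.0-fold higher after 7 days. With a call set at a 2-fold difference of log2(CPM + 1), 4 members were called lower and 1 higher with no recovery, beside 5.69% of all 8963 compared genes called lower and 24.4% called higher. After 7 days 3 members were called lower and 1 higher, beside 4.27% and 22.9% of all genes. Called in the same direction at both time points were 3 members that fell, Slc10a1, Slco1a1 and Slco1b2 (3.74% of all genes), and 1 that rose, Abcc4 (19.2%). Genes were compared where their mean over the libraries reached 10 CPM. All 9 members passed, although Abcc4 did so through the OGT-KO-labelled libraries. Slco1a1 was under 10 CPM in the OGT-KO-labelled library after 7 days (5.85 CPM). As the members were picked with results of these data known, the counts describe them and carry no test.

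**Figure D1:**
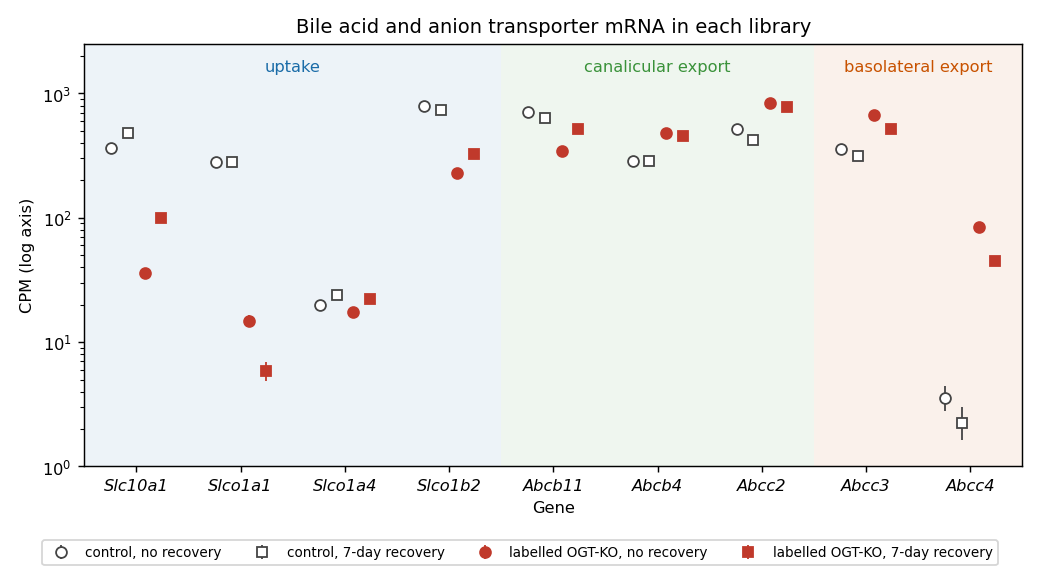
CPM (log axis) of the 9 transporter genes in each of the 4 libraries; circles are no recovery, squares 7-day recovery, open symbols control and filled symbols labelled OGT-KO, and bars are 95% counting intervals. The open and filled symbols are farthest apart for Slco1a1 (279.5 and 14.9 CPM with no recovery) and Abcc4 (3.53 and 84.9 CPM), and they lie together for Slco1a4 (19.8 and 17.5 CPM).

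Slc10a1, which carries most sodium-dependent bile acid uptake, had 362.9 CPM in the control library and 35.9 in the OGT-KO-labelled library with no recovery, and 483.1 and 99.9 CPM after 7 days. It fell 10.1-fold (9.41 to 10.9) with no recovery and 4.83-fold (4.62 to 5.06) after 7 days. The OGT-KO-labelled libraries were thus the low ones at each time point, and the lower of them was the one with no recovery. The log2 ratio was 1.06 (0.94 to 1.19) nearer to 0 after 7 days.

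Slco1a1, an anion carrier that is male-biased in mouse liver, had 279.5 and 14.9 CPM with no recovery and 282.4 and 5.85 CPM after 7 days, control first. This was the largest fall of the 9 members, 18.8-fold (16.8 to 21.0) with no recovery and 48.3-fold (40.6 to 57.8) after 7 days. Its control libraries were alike, and the OGT-KO-labelled library after 7 days was the lowest of the 4 at 132 reads. Only 0.357% and 0.134% of compared genes had a lower log2 fold change at the 2 time points. Unlike that of Slc10a1, the log2 ratio of Slco1a1 lay 1.36 (1.07 to 1.66) farther from 0 after 7 days than with no recovery.

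Slco1b2, the liver-restricted carrier of unconjugated bile acids and many drugs, had the highest uptake level per kilobase in 3 of the 4 libraries. It was at 790.4 and 230.9 CPM with no recovery and at 738.0 and 323.0 CPM after 7 days, and it fell 3.42-fold (3.32 to 3.53) and 2.28-fold (2.22 to 2.35). Slco1a4, a carrier of broad anion and steroid specificity, stayed low everywhere, at 19.8 and 17.5 CPM with no recovery and 23.9 and 22.4 CPM after 7 days. It was 1.13-fold lower in the OGT-KO-labelled library with no recovery (0.985 to 1.30) and 1.07-fold lower after 7 days (0.940 to 1.21), and both intervals included 1. The genes of these 3 Slco carriers lie in a single cluster on chromosome 6 (RefSeq, GRCm38.p6). Transcripts of Slco1a1 and Slco1a4 share 2.60% and 2.73% of their 50-base words with each other, other Slco1a genes, Gm5724 and Gm6614, and how reads on such stretches were counted is not given in the sources used here.

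Abcb11 was the canalicular gene that differed from its class. It had 707.8 and 344.7 CPM with no recovery, a fall of 2.05-fold (2.00 to 2.11), and 630.0 and 518.2 CPM after 7 days, which was 1.22-fold lower (1.19 to 1.25) and no longer called. Exons of Gm13613 and Gm13614 overlap it on the other strand, and whether strand was used in counting is not given. Abcb4, whose product puts phospholipid into bile alongside bile salts, had 285.9 and 483.6 CPM with no recovery and 283.8 and 456.7 CPM after 7 days. It was 1.69-fold (1.64 to 1.75) and 1.61-fold (1.56 to 1.66) higher in the OGT-KO-labelled library, and 3.42% of its 50-base words are shared with Abcb1a and Abcb1b. Abcc2, the conjugate pump, had 515.2 and 835.9 CPM with no recovery and 421.7 and 775.7 CPM after 7 days. These were ratios of 1.62 (1.58 to 1.66) and 1.84 (1.79 to 1.89). None of the values of Abcb4 and Abcc2 reached the 2-fold call.

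Abcc3, the constitutive basolateral pump for glucuronides, had 355.5 and 670.4 CPM with no recovery and 312.3 and 514.9 CPM after 7 days, 1.89-fold (1.83 to 1.94) and 1.65-fold (1.6 to 1.7) higher in the OGT-KO-labelled library and under the call. Abcc4, which exports bile acids together with glutathione, was the lowest member in both control libraries. It had 3.53 CPM (2.78 to 4.42, 75 reads) and 2.25 CPM (1.64 to 3.01, 45 reads) in the control libraries with no recovery and after 7 days. The OGT-KO-labelled libraries held 84.9 CPM (81.1 to 88.7, 1941 reads) and 45.0 CPM (42.3 to 47.9, 1016 reads). It rose 24.1-fold (19.1 to 30.7) and 20.0-fold (14.8 to 27.6), and the low number of control reads sets the width of these intervals.

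The size of each difference depended on how libraries were scaled. As deposited, the median compared gene was itself 0.51 (no recovery) and 0.48 (7 days) higher on the log2 scale in the OGT-KO-labelled library, and under median-ratio scaling it was at -0.19 and -0.18. Relative to the median gene, Slc10a1 was at -3.81 and -2.74, Slco1a1 at -4.65 and -5.85, and Slco1b2 at -2.28 and -1.67, so the falls were deeper. On the same relative scale Slco1a4 was at -0.68 and -0.57 and Abcb11 at -1.54 and -0.76. The modest excess of Abcb4 shrank to 0.25 and 0.21, of Abcc2 to 0.19 and 0.40, and of Abcc3 to 0.40 and 0.24, whereas Abcc4 stayed at 3.74 and 3.34. Under median-ratio scaling Abcc2 with no recovery changed sign, from 0.70 to -0.02. A direction for Abcb4, Abcc2 and Abcc3 is therefore not given beyond the deposited scale, and calls of the 2-fold members kept their direction under that scaling in both label comparisons. The share of higher genes among all calls was 81.1% with no recovery and 84.3% after 7 days as deposited, and 40.4% and 49.6% under median-ratio scaling.

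**Figure D2:**
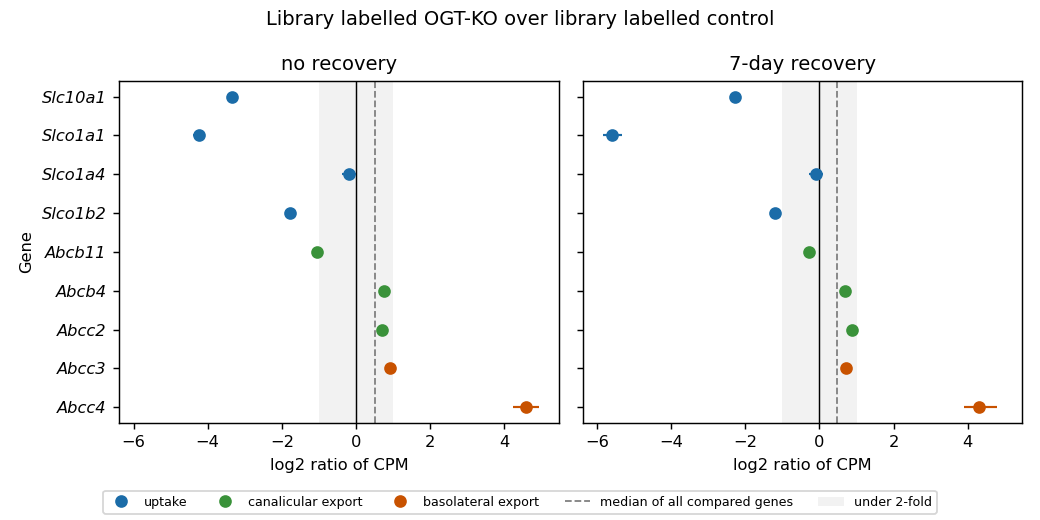
log2 ratio of CPM, OGT-KO-labelled over control library, for the 9 members with no recovery (left) and after 7 days (right); bars are 95% counting intervals, the dashed line is the median of all compared genes on the log2(CPM + 1) scale (0.51 and 0.48) and grey marks differences under 2-fold. Slc10a1, Slco1a1 and Slco1b2 lie left of the grey band in both panels, Abcb11 in the left panel, and Abcc4 lies right of it in both.

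Promoter windows are printed for the members that were called and for Slco1a4, the uptake gene that was not, so that their sequence can be set beside these values, and the matches of the uncalled Abcb4 and Abcc2 follow in words. Windows from RefSeq (GRCm38.p6) run from 250 bases before to 50 after an annotated start, printed 5′ to 3′ on the strand of the gene. Such windows were at hand for 8 of the 9 members, with Abcc3 not analysed here. Capitals mark matches on either strand to 5 short motifs: AGGTCA, a nuclear receptor half-site; TGACNNNGC, the core of the antioxidant response element; TTCNNNGAA, the STAT5 element; GTTAAT, a half-site for HNF1; and GCGTG, the core of the AhR element. In order, the windows are chr12:80968656-80968955 (minus strand), chr6:141946913-141947212 (minus), chr6:141629268-141629567 (plus), chr6:141856171-141856470 (minus), chr2:69342567-69342866 (minus) and chr14:118706170-118706469 (minus). Slc10a1 and Abcc4 each have a further annotated start that is not printed.
Slc10a1: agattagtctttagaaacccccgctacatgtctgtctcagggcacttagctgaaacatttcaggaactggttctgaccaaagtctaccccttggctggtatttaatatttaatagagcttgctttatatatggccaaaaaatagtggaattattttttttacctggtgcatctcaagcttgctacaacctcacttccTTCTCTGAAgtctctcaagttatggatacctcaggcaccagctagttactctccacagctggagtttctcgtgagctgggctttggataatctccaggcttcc
Slco1a1: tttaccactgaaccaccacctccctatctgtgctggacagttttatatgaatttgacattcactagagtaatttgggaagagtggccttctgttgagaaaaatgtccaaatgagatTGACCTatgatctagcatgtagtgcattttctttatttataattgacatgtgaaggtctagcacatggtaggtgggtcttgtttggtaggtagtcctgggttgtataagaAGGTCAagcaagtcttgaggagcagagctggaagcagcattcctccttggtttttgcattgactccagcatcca
Slco1b2: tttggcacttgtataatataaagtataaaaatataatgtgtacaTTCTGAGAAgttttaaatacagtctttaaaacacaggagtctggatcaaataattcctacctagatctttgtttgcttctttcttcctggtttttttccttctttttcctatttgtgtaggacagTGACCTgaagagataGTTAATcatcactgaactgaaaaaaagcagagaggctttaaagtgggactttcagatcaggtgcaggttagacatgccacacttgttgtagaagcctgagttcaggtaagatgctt
Slco1a4: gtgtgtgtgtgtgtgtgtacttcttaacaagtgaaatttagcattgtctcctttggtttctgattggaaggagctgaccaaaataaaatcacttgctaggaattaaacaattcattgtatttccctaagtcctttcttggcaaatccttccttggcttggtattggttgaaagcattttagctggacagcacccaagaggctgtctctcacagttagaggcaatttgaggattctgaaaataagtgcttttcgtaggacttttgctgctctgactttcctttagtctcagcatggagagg
Abcb11: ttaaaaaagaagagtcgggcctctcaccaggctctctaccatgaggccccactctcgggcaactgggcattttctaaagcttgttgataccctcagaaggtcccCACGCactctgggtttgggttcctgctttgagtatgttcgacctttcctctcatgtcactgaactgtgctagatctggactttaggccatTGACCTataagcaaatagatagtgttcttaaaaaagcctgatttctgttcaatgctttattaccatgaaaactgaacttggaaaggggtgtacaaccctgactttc
Abcc4: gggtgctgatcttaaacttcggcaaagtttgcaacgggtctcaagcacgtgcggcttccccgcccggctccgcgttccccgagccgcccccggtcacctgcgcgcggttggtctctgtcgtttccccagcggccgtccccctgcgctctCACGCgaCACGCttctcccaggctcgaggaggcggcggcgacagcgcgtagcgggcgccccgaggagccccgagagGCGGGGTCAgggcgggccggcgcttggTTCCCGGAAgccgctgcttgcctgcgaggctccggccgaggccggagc

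In these windows AGGTCA stood 134 and 24 bases upstream of the start of Slco1a1, 81 upstream of that of Slco1b2 and 56 upstream of that of Abcb11, which also held GCGTG 146 bases upstream. Slco1b2 also held TTCNNNGAA 206 bases upstream and GTTAAT 66 upstream, and Slc10a1 held TTCNNNGAA 53 bases upstream. Abcc4 held TGACNNNGC 25 bases upstream, GCGTG at 101 and 94 bases upstream, and TTCNNNGAA from the second base after the start. At the further starts, whose windows are not printed, Slc10a1 held AGGTCA 87 bases upstream and Abcc4 held TGACNNNGC 23 bases upstream. Of the members that were not called, Abcc2 held AGGTCA 49 and TGACNNNGC 98 bases upstream, Abcb4 held GCGTG 6 bases upstream, and Slco1a4 held none of the 5 motifs. Called and uncalled members alike thus had matches. Of all 32851 windows, 16.3% held AGGTCA, 12.4% TGACNNNGC, 8.30% TTCNNNGAA, 7.10% GTTAAT and 32.4% GCGTG, so most of these matches are common ones. A match describes letters and not binding. The Abcc4 window was also the richest in G and C of the members (72.7%, against a median of 52.7% over all windows), and that of Slco1b2 the poorest (35.3%).

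The balance between the classes was compared within each library, which no scaling between libraries can change. Levels were divided by the length of the principal transcript (GENCODE M21) and summed. In the control libraries the uptake genes made up 60.6% (no recovery) and 65.5% (7 days) of the CPM per kilobase of the 9 members, and in the OGT-KO-labelled libraries 18.4% and 27.8%. Canalicular export made up 31.2% and 27.5% in control and 54.0% and 53.3% in OGT-KO-labelled libraries. Basolateral export made up 8.14% and 6.99% in control and 27.6% and 19.0% in OGT-KO-labelled libraries. Uptake was thus the largest class in both control libraries and canalicular export in both OGT-KO-labelled libraries.

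**Figure D3:**
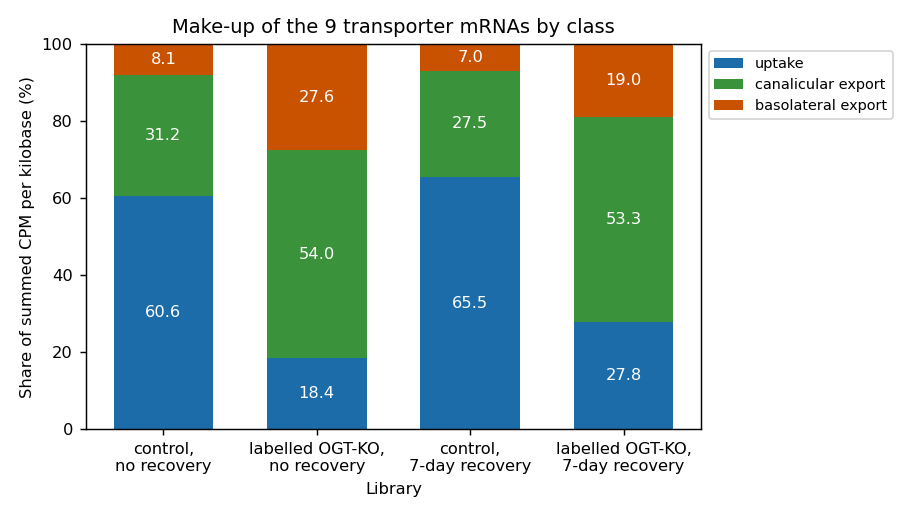
Share (%) of the summed CPM per kilobase of the 9 transporters held by uptake, canalicular export and basolateral export genes in each library. Uptake takes 60.6% and 65.5% of the control bars and 18.4% and 27.8% of the OGT-KO-labelled bars.

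The summed canalicular level stood at 0.515 of the summed uptake level in the control library and 2.93 in the OGT-KO-labelled library with no recovery, and at 0.420 and 1.92 after 7 days. The label thus went with a 5.69-fold (5.52 to 5.87) higher canalicular to uptake ratio with no recovery and a 4.57-fold (4.44 to 4.70) higher one after 7 days. For basolateral export to uptake the ratios were 0.134 and 1.5 with no recovery and 0.107 and 0.683 after 7 days, that is, 11.2-fold (10.7 to 11.6) and 6.40-fold (6.16 to 6.65) higher. With geometric means of a class in place of sums, which weigh Abcc4 as much as Abcc3, these were 35.1- and 28.0-fold, and the canalicular ones 5.74- and 6.57-fold. As deposited, the canalicular sum was 275.1, 291.3, 247.5 and 311.7 CPM per kilobase (control and OGT-KO with no recovery, then control and OGT-KO after 7 days). The uptake sum went from 534.0 to 99.3 and from 588.8 to 162.4 CPM per kilobase, and the basolateral sum from 71.7 to 149.0 and from 62.9 to 110.9. Of the terms of each ratio, uptake was the one that differed most between the labels on the deposited scale.

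The make-up inside each class also differed. In canalicular export Abcb11 held 51.2% and 50.7% of the level per kilobase in the control libraries but 23.5% and 33.1% in the OGT-KO-labelled libraries. In uptake the share of Slc10a1 went from 38.9% to 20.7% with no recovery and from 46.9% to 35.2% after 7 days, and that of Slco1b2 from 44.8% to 70.3% and from 37.9% to 60.1%. The share of Slco1a4, whose own level was not called, went from 0.970% to 4.61% and from 1.06% to 3.6%. Abcc4 held 0.861% and 0.627% of basolateral export in the control libraries and 9.97% and 7.10% in the OGT-KO-labelled libraries, so Abcc3 remained the main basolateral transcript in all 4.

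Ranked by CPM per kilobase, the control library with no recovery ran from Slco1b2 (239.0) through Slc10a1 (207.5), Abcb11 (140.9) and Slco1a1 (82.3) down to Slco1a4 (5.18) and Abcc4 (0.617). Abcc3 (71.1) and Abcb4 (70.1), in the middle of that order, did not differ beyond their counting intervals. The OGT-KO-labelled library with no recovery was led by Abcc3 (134.1), Abcb4 (118.6) and Abcc2 (104.1), followed by Slco1b2 (69.8) and Abcb11 (68.6), whose intervals overlapped. Slco1a4 (4.58) and Slco1a1 (4.38) came last there, also with overlapping intervals. After 7 days Slc10a1 (276.2) led the control library, and Abcb4 (112.0) the OGT-KO-labelled library, in which Abcb11 (103.1) and Abcc3 (103.0) were level and Slco1a1 (1.72) was last.

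Recovery was compared within each label. In the control libraries no member was called in either direction (0.245% of all genes were called higher and 0.96% lower), and the median gene was at -0.05. The largest differences were in Slc10a1, 1.33-fold higher after 7 days (1.29 to 1.37), and Abcc4, 1.57-fold lower (1.07 to 2.32). Slco1a1 (1.01-fold, 0.974 to 1.05) and Abcb4 (1.01-fold lower, 0.971 to 1.04) had intervals that included 1. In the OGT-KO-labelled libraries 1 member was called higher and 1 lower, beside 1.04% and 0.435% of all genes. Slc10a1 was 2.78-fold higher after 7 days (2.57 to 3.02) and Slco1a1 2.54-fold lower (2.07 to 3.13), so these uptake genes went opposite ways.

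**Figure D4:**
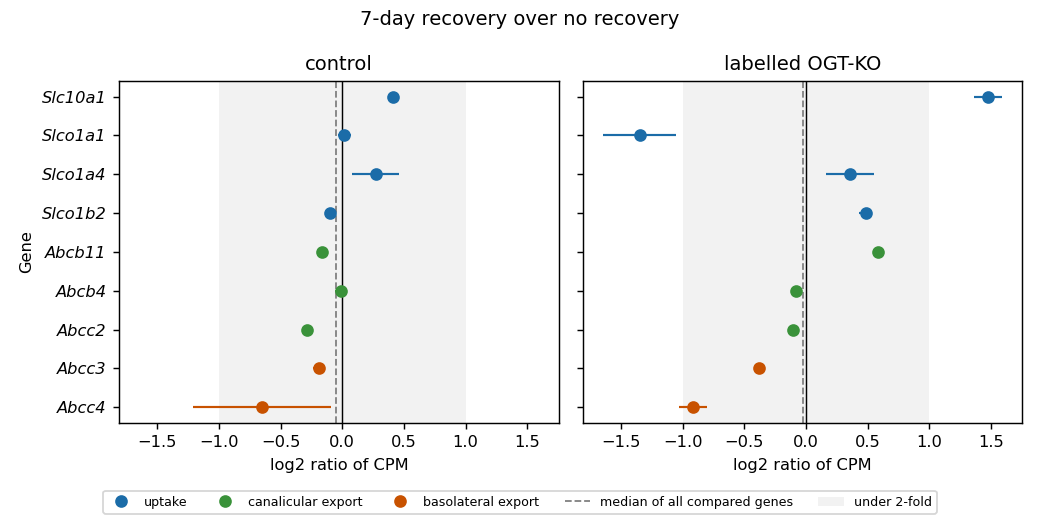
log2 ratio of CPM, 7-day recovery over no recovery, for the 9 members in the control libraries (left) and the libraries labelled OGT-KO (right); bars are 95% counting intervals, the dashed line is the median of all compared genes on the log2(CPM + 1) scale and grey marks differences under 2-fold. All 9 control points lie within the grey band; in the right panel Slc10a1 (2.78-fold higher) and Slco1a1 (2.54-fold lower) lie outside it.

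Short of the call, Abcb11 was 1.5-fold higher (1.46 to 1.55) and Slco1b2 1.40-fold higher (1.35 to 1.45) after 7 days in the OGT-KO-labelled libraries, where the control libraries had them 1.12-fold and 1.07-fold lower. Abcc4 was 1.89-fold lower (1.75 to 2.04) and Abcc3 1.30-fold lower (1.27 to 1.33). Abcc2 and Abcb4 were within 1.08-fold. The values of Slc10a1, Slco1b2, Abcb11, Abcc3 and Abcc4 in the 7-day OGT-KO-labelled library thus lay nearer to those of the control libraries than the values with no recovery did, and that of Slco1a1 lay farther. The control libraries also had Abcc3 (1.14-fold) and Abcc4 (1.57-fold) lower after 7 days. From no recovery to 7 days the log2 label ratio differed by -0.19 (-0.25 to -0.13) for Abcc3. For Abcc4 it differed by -0.27 (-0.81 to 0.28), an interval that included 0. These comparisons share libraries with the label comparisons above and are not independent of them.

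The other transporters of bile acids, sterols and organic ions were read from a list of 23 genes, of which 22 were in the table and 18 were compared; 4 rose and 3 fell at both time points, beside 19.2% and 3.74% of all genes. Under median-ratio scaling, tried after these values were seen, 3 were higher and 8 lower at both, beside 9.35% and 10.4% of all genes. Those that rose were Abcb1a, a drug efflux pump (3.82 and 3.10 on the log2(CPM + 1) scale, no recovery first), Abcc5, a nucleotide pump (2.56 and 2.75), Abcc9, a channel subunit (1.45 and 1.59), and Slco3a1 (2.54 and 2.87). Those that fell were the organic anion carrier Slc22a7 (-3.38 and -1.5), the apical bile acid carrier Slc10a2 (-3.11 and -1.66) and the cation exporter Slc47a1 (-2.88 and -1.85). Abcb1a went from 1.74 to 37.8 CPM with no recovery. Of the genes that rose, Abcb1a, Abcc5 and Slco3a1 were under 10 CPM in both control libraries. They passed the filter through the OGT-KO-labelled libraries, so their count is not independent of the filter. Of the genes that fell, Slc22a7 and Slc10a2 passed it through the control libraries, so that count is not independent of it either. In the OGT-KO-labelled libraries Slc22a7 was at 2.71 and 14.5 CPM and Slc10a2 at 3.94 and 8.64 CPM. As deposited, the sterol exporters Abcg5 (0.31 and -0.06) and Abcg8 (-0.46 and -0.84) were not called. The median of the list was -0.34 and -0.30, against 0.51 and 0.48 for all genes. Slc51b, a subunit of the basolateral bile acid exporter, was below the filter with 0.518 and 2.71 CPM with no recovery and 0.601 and 11.7 CPM after 7 days. Its partner Slc51a was at 0.45 and 0.52 on the log2 scale and was not called. Under median-ratio scaling the signs of Slc51a and, with no recovery, Abcg5 turned negative, and Abcc9 (0.75 and 0.93) was below the call. Past the call at both under that scaling were also Abcg8 (-1.16 and -1.51), Abcc6, Slco2a1, Slco2b1 and Slc10a5. Slc10a5, at 6.21 and 12.6 CPM in the OGT-KO-labelled libraries, also passed the filter through the control libraries.

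Of 13 regulators, all compared, 1 rose at both time points and none fell at both as deposited, beside 19.2% and 3.74% of all genes. Under median-ratio scaling none rose and 8 fell at both, beside 9.35% and 10.4% of all genes. Nfe2l2, which encodes NRF2, rose from 57.0 to 171.1 CPM with no recovery and from 48.5 to 159.7 after 7 days (1.57 and 1.70). The bile acid receptor gene Nr1h4 (FXR) was at -0.33 and -0.66, not called, and at -1.04 and -1.34, past the call, under median-ratio scaling. With no recovery 5 regulators fell, beside 5.69% of all genes called lower. They were Fgfr4, the FGF15 receptor (-1.81), the FXR target Nr0b2 (-1.60), Nr1i3, which encodes CAR (-1.43), Hnf4a (-1.34) and Ppara (-1.31). After 7 days none of these 5 was called as deposited, with values from -0.99 (Nr1i3) to -0.65 (Fgfr4). Under median-ratio scaling all 5 were past the call then, from Nr1i3 (-1.67) through Hnf4a (-1.60), Ppara (-1.59) and Nr0b2 (-1.38) to Fgfr4 (-1.32), so their loss of the call depends on the scaling. Nr1i2, which encodes PXR, was at 0.65 and 0.86, under the call, and Ahr was at 0.87 and 1.16. Under median-ratio scaling Nfe2l2 was at 0.86 and 1.02 and Nr1i2 with no recovery turned to -0.06. The list median was -0.58 and -0.61.

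Among 9 genes used as reporters of these receptors, 3 rose and 1 fell at both time points as deposited, beside 19.2% and 3.74% of all genes. Under median-ratio scaling 2 rose and 3 fell at both, beside 9.35% and 10.4% of all genes. Nqo1 (3.52 and 3.27) and Gclc (1.38 and 1.19), targets of NRF2, and Cyp2b10, a target of CAR (2.12 and 1.86), rose. Nqo1 passed the filter through the OGT-KO-labelled libraries, with 4.94 and 4.46 CPM in the control libraries. Cyp8b1, the sterol 12-alpha-hydroxylase of bile acid synthesis, fell from 348.1 to 5.16 CPM without recovery, and after 7 days from 412.1 to 51.0 (-5.82 and -2.99). Cyp7a1, the rate-limiting enzyme of that synthesis (-0.44 and -0.34), and the PXR target Cyp3a11 (0.07 and 0.28) were not called as deposited. Nor were Txnrd1, a further NRF2 target (0.89 and 0.92), and Cyp1a2, a target of AhR (-0.42 and -0.61). Under median-ratio scaling Gclc was at 0.66 and 0.50, below the call, Cyp3a11 at -0.65 and -0.40, and Cyp7a1 at -1.14 and -1.02, past it. Txnrd1 was then at 0.18 and 0.24, below the call, and Cyp1a2 at -1.13 and -1.30, past it. The list median was 0.07 and 0.92.

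Of 13 genes for canalicular scaffolds and trafficking, 11 were compared, and 3 rose and none fell at both time points, beside the 19.2% and 3.74% of all genes given above. Ezr, which encodes ezrin, the scaffold typical of biliary epithelium, rose by 3.44 and 3.63, Msn, which encodes moesin, by 2.51 and 2.93, and Myo5b, the motor of apical recycling, by 1.17 and 1.67. Rdx, which encodes radixin, the scaffold of the hepatocyte canaliculus, was not called (-0.14 and 0.34). Under median-ratio scaling Myo5b was at 0.47, below the call, with no recovery and Rdx was at -0.34 after 7 days, and Pdzk1, a scaffold gene, was past the call at both times (-1.57 and -1.02). The list median was 0.94 and 0.76. Ezr passed the filter through the OGT-KO-labelled libraries, with 5.50 and 5.76 CPM in the control libraries. Ezr and Msn moved with the cholangiocyte and stellate cell sums given above, and the part of those cells was not tested.

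Since Slco1a1 is male-biased in mouse liver, 9 further male-biased genes were read beside it. At both time points 7 of the 9 fell and none rose, beside 3.74% and 19.2% of all genes, with medians of -3.65 and -3.39. Under median-ratio scaling all 9 fell at both, beside 10.4% of all genes. Mup7 went from 2844 to 0.656 CPM with no recovery, and the major urinary protein genes are near-identical copies that are uncertain singly. In the OGT-KO-labelled libraries Mup7 (0.656 and 0.354 CPM) and Hsd3b5 (0.175 and 0.133 CPM) were under 10 CPM at both time points. They passed the filter through the control libraries, so the count of genes that fell is not independent of the filter. Cyp4a12a (-4.32 and -3.71), Elovl3 (-4.01 and -3.39) and Cyp7b1, an oxysterol hydroxylase of bile acid synthesis (-3.28 and -3.56), were of the same order as Slco1a1 (-4.14 and -5.37). Of 7 female-biased genes 6 were in the table and 1 passed the filter, Cyp2a4, which rose (6.6 and 4.19). It had 8.94 and 9.66 CPM in the control libraries and 963.2 and 193.2 in the OGT-KO-labelled libraries. As it passed the filter only through the latter, its being higher there is not independent of the filter. The sex of the pooled mice is not given in the sources used here, and its part was not tested.

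**Figure D5:**
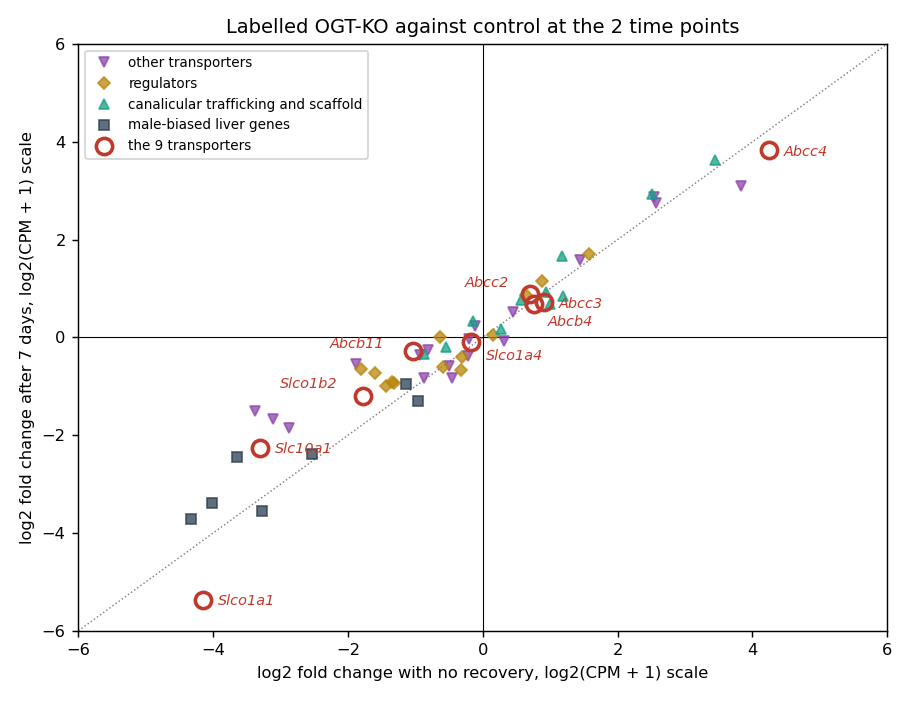
Each point is a gene, placed by its log2 fold change (log2(CPM + 1) scale, labelled OGT-KO against control) with no recovery on the x axis and after 7 days on the y axis; open circles are the 9 transporters, other symbols the compared genes of 4 lists, and the dotted line marks equal values. Slco1a1 lies below the dotted line (-4.14 and -5.37) and Slc10a1 above it (-3.30 and -2.26); Mup7 and Hsd3b5 lie beyond the axes.

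Over the 4 libraries, the compared genes nearest to Slco1a1 in pattern, by Euclidean distance of centred log2(CPM + 1) values, were Serpina1e (0.623), Slc1a2 (0.710) and Mup21 (0.928). Serpina1e, a serpin gene, went from 14115 to 448.0 CPM with no recovery and from 11735 to 306.3 after 7 days. Those nearest to Abcc4 were Srxn1 (0.210), Acta2 (0.262) and Cdkn1a (0.276). Srxn1, which encodes sulfiredoxin of the antioxidant response, went from 48.7 to 1018 CPM with no recovery and from 41.7 to 506.1 after 7 days, and Acta2, a marker of activated stellate cells, from 5.22 to 94.3 and from 2.95 to 62.4. The distance rests on 4 libraries and says nothing of shared control.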

How the data were processed

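Liver RNA was isolated with TRIzol and mRNA libraries were made with the Tecan universal plus mRNA-seq kit, per the labels. The authors deposited CPM for 13903 genes; the submitters' processing notes name STAR, DESeq2 and the GRCm39 build, and counting settings, strand and filter are not given in the sources used here. Each column summed to 1000000, and 100% of the values were whole multiples of the value of 1 read (within 0.02 reads), so whole reads were recovered (19972699 to 22866431 a library). Fold changes were differences of log2(CPM + 1), which makes changes of low genes look smaller, over the 8963 genes whose mean reached 10 CPM, and a gene was called at 2-fold. With 1 library a condition, the conditions were not tested against each other. An exact binomial test of the recovered reads (Benjamini-Hochberg q below 0.05), which compares libraries and not conditions, called 8016 (no recovery) and 7904 (7 days) genes between the labels and 3557 (control) and 5065 (OGT-KO) between the times, and 8, 8, 7 and 9 members. Counting intervals of a level are exact Clopper-Pearson, those of a ratio exact conditional, and those of class ratios normal approximations. Transcript lengths came from GENCODE M21 (GRCm38) and promoter windows from RefSeq (GRCm38.p6), neither of them the build of the files; gene names were matched by the symbols in the table. The 9 members and all lists were chosen with earlier results of these data known. A gene of the scaffold and trafficking list is not reported here. Genes named were the members, list genes called at both time points in the same direction, the receptor genes of the members, and the 3 genes nearest in pattern to the members of largest mean fall and rise; other list genes named beside them, with no call at both times, were chosen after their values were seen. Python 3.11, numpy 2.4.6, pandas 2.3.3, scipy 1.17.1 and matplotlib 3.10.9 were used, and the steps were tested on simulated reads. Alternatives were pseudocounts of 0.1 and 10, no filter or a mean of at least 50 CPM, 3 other scalings, thresholds of 1.5- and 4-fold, other lengths, and geometric means of a class; for the lists, median-ratio scaling and no filter were added after seeing the data.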

Additional observations from a re-analysis of the deposited data

Results flagged for a closer look

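For 3 genes the direction of a difference was opposite in the 2 groups set side by side; each group is 1 library against 1 other, so the difference between groups was not tested. Abcb11 was at -0.17 on the log2(CPM + 1) scale after 7 days in the control libraries and at 0.59 in the libraries labelled OGT-KO, and Slco1b2 at -0.10 and 0.48. Cyp4a14, a fatty acid hydroxylase and target of PPARα, was at -1.67 between the labels with no recovery and at 2.55 after 7 days, and its recovery difference was -1.90 in control and 2.32 in OGT-KO-labelled libraries. Its 4 levels were 33.2 and 9.75 CPM with no recovery and 8.16 and 52.7 CPM after 7 days, control first.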

How the results depend on the processing

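No paired analysis was possible because each condition has 1 library. No result changed direction among those past the call. With a pseudocount of 10 the count of members called lower on recovery in OGT-KO-labelled libraries was 0. A mean filter of 50 CPM removed Abcc4 and left 0 members called higher with no recovery and 0 after 7 days. At 1.5-fold, members called higher numbered 4 with no recovery and 4 after 7 days, and on recovery in OGT-KO-labelled libraries 2 were higher and 2 lower. At 4-fold, 2 members were lower with no recovery, and on recovery in OGT-KO-labelled libraries 0 were higher and 0 lower. Without length correction the label differences of log2 class ratios were 2.42 (canalicular to uptake, no recovery), 2.15 (7 days), 3.35 (basolateral to uptake, no recovery) and 2.59 (7 days), and with geometric means of a class 2.72 (canalicular, 7 days), 5.13 (basolateral, no recovery) and 4.81 (basolateral, 7 days), against 2.51, 2.19, 3.48 and 2.68. Of 180 member fold changes under alternatives, 176 kept their sign; the exceptions were Abcc2 with no recovery under median-ratio scaling (-0.02) and Abcb4 on recovery in control libraries under 3 scalings (0.03 to 0.04, against -0.01). Depth limits Abcc4 in control libraries (75 and 45 reads), and 1 pool a condition leaves differences between mice unmeasured.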
